A study of Homo sapiens with 8 samples.

Results

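A genome-wide CRISPRi growth screen in K562 cells, a human chronic myelogenous leukemia line, was examined for 30 genes that modify, splice or ligate tRNA. The members were the sgRNAs of the primary promoter named for 1 of these genes in the deposited count table, with a mean count of at least 20 over all libraries. This gave 152 sgRNAs for 30 genes, out of 87897 sgRNAs for the 17547 genes tested. Another 2 sgRNAs of these genes, for OSGEP and ZBTB8OS, had counts below that minimum. All 30 genes kept at least 3 sgRNAs and were tested. Of them 27 kept 5 sgRNAs, MOCS3 kept 6, YRDC 7 and ZBTB8OS 4. Symbols are those of the sgRNA names.

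The cells carried dCas9-KRAB, an inactive Cas9 fused to a transcriptional repressor, and stably expressed mutant or wild-type uL16, the large-subunit ribosomal protein encoded by RPL10. After transduction with the sgRNA library and selection in puromycin at 1 µg/ml for 3 days, genomic DNA was taken at day 9 and at day 0 and its sgRNAs were sequenced. The 4 groups were mutant uL16 at day 9, mutant uL16 at day 0, wild-type uL16 at day 9 and wild-type uL16 at day 0, with 2 libraries each, and the study sought genes whose knockdown matters for the quality control of defective large ribosomal subunits. The labels do not state the mutation, whether each line is a clone, or whether replicates were separate cultures, so p-values measure only the spread between these libraries, which may be technical.

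Transfer RNAs are transcribed as precursors, trimmed, in some cases spliced, and modified at many bases before they decode mRNA. Elongator and the thiolation enzymes modify the wobble uridine of the anticodon, KEOPS and YRDC make a threonylcarbamoyl adenosine next to the anticodon, and the ADAT2 and ADAT3 deaminase turns wobble adenosine into inosine. Intron-containing tRNAs are cut by the TSEN endonuclease and joined by the RTCB ligase complex, and TRNT1 adds the CCA end to which amino acids are attached.

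The guide sequences themselves are not printed. Since CRISPRi acts at promoters, the 250 bases upstream of the annotated start (RefSeq, GRCh38.p14) are shown, 5′ to 3′ on the gene's strand, for the 4 members with the lowest log2 change in mutant cells for which a window could be printed. These were RTCB (chr22:32412248-32412497, minus strand), FAM98B (chr15:38453877-38454126, plus strand), ELP5 (chr17:7252176-7252425, plus strand) and TRMT112 (chr11:64317991-64318240, minus strand). Capitals mark the ETS factor core motif CCGGAAG on either strand, here as CTTCCGG in TRMT112.
RTCB: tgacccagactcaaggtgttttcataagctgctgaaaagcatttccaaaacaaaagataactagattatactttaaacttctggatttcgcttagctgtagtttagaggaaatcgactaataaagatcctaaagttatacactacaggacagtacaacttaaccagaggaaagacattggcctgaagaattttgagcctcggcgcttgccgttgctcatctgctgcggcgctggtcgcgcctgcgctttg
FAM98B: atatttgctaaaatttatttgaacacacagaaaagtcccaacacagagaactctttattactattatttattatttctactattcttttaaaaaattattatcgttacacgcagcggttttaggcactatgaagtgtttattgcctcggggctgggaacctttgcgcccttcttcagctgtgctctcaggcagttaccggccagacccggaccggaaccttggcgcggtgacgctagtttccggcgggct
ELP5: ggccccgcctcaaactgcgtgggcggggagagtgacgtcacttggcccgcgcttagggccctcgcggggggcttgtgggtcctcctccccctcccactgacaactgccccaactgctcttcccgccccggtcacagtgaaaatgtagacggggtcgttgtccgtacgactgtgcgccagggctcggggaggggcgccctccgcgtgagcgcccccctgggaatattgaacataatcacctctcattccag
TRMT112: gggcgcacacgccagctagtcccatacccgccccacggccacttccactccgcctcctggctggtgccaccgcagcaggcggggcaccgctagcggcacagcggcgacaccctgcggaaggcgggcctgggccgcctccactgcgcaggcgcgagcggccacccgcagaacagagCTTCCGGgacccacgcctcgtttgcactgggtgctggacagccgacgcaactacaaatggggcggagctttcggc
Of the 30 members, 25 matched a window. CCGGAAG or its reverse complement was present in 9 of these 25 (36%), namely ELP5, ELP6, TP53RK, TPRKB, YRDC, TRMT6, TRMT61A, TRMT112 and DDX1, and in a window of 2795 of 27305 genes in all (10.2%). The ELP5 window shown is the first of those listed for that gene and does not hold it, and another ELP5 window does. The NRF1 core GCATGCGC, searched on both strands, was in none of the 25 and in 878 of the 27305 genes (3.22%). The median GC content of the members' windows was 66%, with a range of 43.2% to 80%, against a median of 58% over all genes. The RTCB and FAM98B windows were at the low end, with 43.2% and 44% GC. A motif match is a match of letters and not a binding site.

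Total counts ranged from 39233340 to 143585751 over the 8 libraries, and the member sgRNAs had a median count of 280 to 1210 per library. They took 0.125% and 0.126% of all counts in mutant cells at day 9, against 0.139% in both libraries at day 0. In wild-type cells they took 0.123% and 0.121% at day 9, against 0.139% in both libraries at day 0. Reads were PCR products with no molecular identifiers, so they are not independent molecules and a total count bears on counting error alone. The 1894 non-targeting control sgRNAs had a median log2 change of 0.044 in mutant and 0.049 in wild-type cells, with an SD of 0.35 and 0.37 among them.

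In mutant cells 8 of the 30 genes fell (26.7%, against 9.07% of all genes tested) and 0 rose (against 0.798%), by edgeR's quasi-likelihood test with Benjamini-Hochberg adjustment over all genes. DESeq2 also called 0 higher. In wild-type cells 9 fell (30.0%, against 9.28%) and 1, ZBTB8OS, rose (against 0.986%). Those called lower in both lines were ELP3, ELP5, URM1, TRMT112, RTCB and FAM98B, 6 in all. ADAT2 and TRMT5 were called in mutant cells alone, and TRMT6, TRMT61A and TRNT1 in wild-type cells alone, but none of these differences between lines was itself called. The other 18 genes were called in neither line. The median log2 change of the 30 genes was -0.12 in mutant and -0.17 in wild-type cells, against 0.01 in both lines over all genes. Fewer members were called in mutant cells without either day 0 mutant library, and in wild-type cells without either day 0 wild-type library. Fewer of all genes were called lower in those fits too. The mutant count of members also fell without mutant day 9 replicate 1. The wild-type count also fell without either wild-type day 9 library or either day 0 mutant library. Without a wild-type day 9 library the share of all genes called lower in wild-type cells hardly changed. In the other fits just named fewer of all genes were called lower too. Where a library is left out, its lone partner is assumed to vary like the other groups.

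For the difference between lines, mutant minus wild-type, 0 of the 30 genes were called by edgeR (against 0.0171% of all genes, 3 of 17547), and DESeq2 called 0. At an unadjusted p under 0.05 there were 2 members (6.67%), ZBTB8OS and ELP3, against 997 of all genes (5.68%). The 95% interval of the difference lay within 1 log2 unit of 0 for 29 of the 30 genes and within 0.5 for 19, the exception at 1 unit being RTCB. The difference was positive, that is the change was less negative or more positive in mutant cells, for 20 genes. It was negative for 10 (33.3%, against 50.4% of all genes).

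The RTCB ligase complex held the largest changes. RTCB, the catalytic subunit that joins tRNA exons, had 6.88 and 6.33 CPM (a read count scaled to the total of its library) at day 9 and 36.5 and 37.7 CPM at day 0 in mutant cells. In wild-type cells RTCB had 6.94 and 3.82 CPM at day 9 and 42.9 and 42.1 CPM at day 0. Day 9 libraries were far below day 0 in both lines with no overlap. The fitted log2 change of RTCB was -2.50 (SE 0.20), a 5.64-fold loss, in mutant cells and -2.99 (SE 0.21), a 7.92-fold loss, in wild-type cells, with edgeR adjusted p = 4.74e-12 and 2.03e-13. The difference of 0.49 (95% interval -0.07 to 1.05, edgeR adjusted p = 0.885) was not called, and wild-type day 9 replicate 2 was the lowest RTCB library. All 5 RTCB sgRNAs had negative changes in both lines, and 3 were called in mutant and 4 in wild-type cells. The pair with the lowest reliable values, 6 bp apart, had log2 changes of -4.41 and -4.79 in mutant and -4.37 and -3.95 in wild-type cells. The sgRNA not called in either line had under 1 CPM in every library, so its values of -3.51 and -2.32 rest on few reads.

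FAM98B, a non-catalytic subunit of the ligase complex, had 20.0 and 14 CPM at day 9 and 30.9 and 29.7 CPM at day 0 in mutant cells. In wild-type cells it had 14.8 and 14.5 CPM at day 9 and 27.3 and 24.8 CPM at day 0. The groups did not overlap in either line, and FAM98B fell by 0.85 (SE 0.18, edgeR adjusted p = 7.02e-04) in mutant cells and by 0.83 (SE 0.18, adjusted p = 0.00103) in wild-type cells on the log2 scale. Its 5 sgRNAs lay within 28 bp of each other, and 1 was called in both lines, at -1.38 in mutant and -1.78 in wild-type cells. Without the most abundant sgRNA the wild-type change was -0.54 (adjusted p = 0.0792) and was no longer called. DDX1, the helicase of the complex, was at -0.03 in mutant and -0.18 in wild-type cells and was not called. C14orf166, a further subunit that is not among the 30 genes, fell by 1.26 (SE 0.14) in mutant and 1.62 (SE 0.14) in wild-type cells, so the subunits did not move alike.

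ZBTB8OS, the archease that helps RTCB through repeated rounds of ligation, was the only member to rise. It had 40.7 and 41.6 CPM at day 9 and 37.2 and 40.9 CPM at day 0 in mutant cells, against 47.2 and 51.1 CPM at day 9 and 36.7 and 29.9 CPM at day 0 in wild-type cells. The mutant groups overlapped and the wild-type groups did not. The log2 change was 0.08 (SE 0.12) in mutant cells and 0.56 (SE 0.12, edgeR adjusted p = 0.00125) in wild-type cells. Without wild-type day 0 replicate 2, the lowest library, the wild-type change was 0.42 (adjusted p = 0.112) and was not called. ZBTB8OS had the smallest p of the difference among the members, -0.48 (95% interval -0.84 to -0.13, edgeR adjusted p = 0.865). One sgRNA was called higher, at 0.66 in mutant (not called) and 0.92 in wild-type cells (called). Of its 4 sgRNAs 3 lay within 1 kb of sgRNAs for RBBP4, a histone-binding subunit of chromatin complexes whose start is 276 bp away on the other strand. RBBP4 itself fell by 1.68 (SE 0.13) in mutant and 1.61 (SE 0.13) in wild-type cells, so the nearby gene moved the other way. The other RNA that RTCB joins is XBP1 mRNA after the nuclease ERN1 cuts it. Neither XBP1, at -0.05 in mutant and -0.12 in wild-type cells, nor ERN1, at -0.20 in mutant and 0.07 in wild-type cells, was called.

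The splicing endonuclease subunits among the members, TSEN15, TSEN34 and TSEN54, were at -0.18, 0.01 and -0.10 in mutant and -0.13, -0.09 and -0.15 in wild-type cells. None was called by edgeR or DESeq2. By edgeR 9.07% of all genes were called lower in mutant and 9.28% in wild-type cells. At an unadjusted p under 0.05 there were 0 of 3 in either line, against 18.1% and 20.3% of all genes. Within TSEN54, 1 of 5 sgRNAs was called lower in both lines, at -2.98 in mutant and -2.43 in wild-type cells. It had 0.48 and 1.43 CPM at day 9 against 7.29 and 8.56 CPM at day 0 in mutant cells, and 1.16 and 0.94 CPM at day 9 against 5.79 and 5.52 CPM at day 0 in wild-type cells. The more abundant sgRNAs of TSEN54 did not follow it, and a mean of log2 CPM over sgRNAs tested with limma, which weights each sgRNA alike, gave -0.62 (adjusted p = 0.00408) in mutant cells.

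Of the 6 Elongator genes, ELP3 and ELP5 fell in both lines. ELP3, the catalytic subunit, had 31.7 and 27.7 CPM at day 9 and 52.0 and 50.3 CPM at day 0 in mutant cells. In wild-type cells ELP3 had 20.2 and 23.5 CPM at day 9 and 47.5 and 54.3 CPM at day 0. Day 9 lay below day 0 in both lines, and wild-type day 9 lay below mutant day 9. ELP3 fell by 0.79 (SE 0.13, edgeR adjusted p = 1.21e-05) in mutant cells and by 1.22 (SE 0.13, adjusted p = 3.84e-09) in wild-type cells. The difference was 0.43 (95% interval 0.06 to 0.80) and did not pass adjustment (edgeR adjusted p = 0.865). The 3 minus-strand sgRNAs of ELP3, within 16 bp, were at -2.16, -1.33 and -1.47 in mutant and -2.74, -1.93 and -2.50 in wild-type cells. The 2 plus-strand sgRNAs, at least 256 bp away, were at -0.01 and 0.11 in mutant and -0.18 and 0.15 in wild-type cells and were not called.

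ELP5, part of the ELP4 to ELP6 subcomplex, had 27.0 and 26.1 CPM at day 9 and 39.8 and 43.3 CPM at day 0 in mutant cells. In wild-type cells ELP5 had 31.6 and 24.3 CPM at day 9 and 51.6 and 44.0 CPM at day 0. The groups were apart in both lines, with a fall of 0.65 (SE 0.14, edgeR adjusted p = 6.31e-04) in mutant and 0.77 (SE 0.14, adjusted p = 5.58e-05) in wild-type cells. It rested on a pair of sgRNAs 13 bp apart, at -2.61 and -0.88 in mutant and -2.46 and -1.85 in wild-type cells, while the next sgRNA was 174 bp away. Without the most abundant sgRNA the wild-type change was -0.45 (adjusted p = 0.0695). The starts of ELP5 and CTDNEP1 are 10 bp apart on opposite strands, and CTDNEP1 was at 0.07 in mutant and 0.04 in wild-type cells and not called.

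ELP2, ELP4 and ELP6 were not called in either line. They were at -0.14, -0.15 and -0.03 in mutant and at -0.26, -0.22 and -0.02 in wild-type cells. In wild-type cells ELP2 passed without day 9 replicate 1 (-0.51, edgeR adjusted p = 0.0348). ELP4 passed there by DESeq2 (adjusted p = 0.0275) and, by edgeR, without its most abundant sgRNA (-0.46, adjusted p = 0.00302). In wild-type cells 1 sgRNA each of ELP2 and ELP4 was called lower, at -0.83 and -1.12. The sgRNAs of ELP2, ELP4 and ELP5 lay near those of SLC39A6, IMMP1L and CTDNEP1, and none of these neighbours was called.

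Among the thiolation genes, URM1, the ubiquitin-like sulfur carrier, had 48.6 and 44.9 CPM at day 9 and 59.0 and 59.5 CPM at day 0 in mutant cells. In wild-type cells it had 48.3 and 47.4 CPM at day 9 and 59.8 and 60.4 CPM at day 0. The groups did not overlap, and URM1 fell by 0.34 (SE 0.10, edgeR adjusted p = 0.0238) in mutant and by 0.33 (SE 0.10, adjusted p = 0.0331) in wild-type cells. Of its 5 sgRNAs 4 had a negative change in mutant and 3 in wild-type cells. Only the most abundant sgRNA was called, at -0.53 in mutant and -0.72 in wild-type cells. Without it the change was -0.13 in mutant and 0.043 in wild-type cells, neither called. On mean log2 CPM limma did not call URM1 in mutant (-0.23, adjusted p = 0.319) or wild-type cells (-0.13, adjusted p = 0.625). The wild-type change was also not called by limma-voom (adjusted p = 0.0556) or by edgeR with only the libraries compared (adjusted p = 0.0536). The mutant call was also lost without mutant day 9 replicate 2 (adjusted p = 0.176) or either mutant day 0 library (0.177 and 0.202), and the wild-type call without any library other than those of mutant day 9 (0.0574 to 0.19). The tRNA thiolation proteins CTU1 and CTU2 and the URM1 activator MOCS3 were at -0.02, 0.06 and -0.13 in mutant cells. In wild-type cells they were at -0.08, -0.05 and -0.19, and none was called in either line. One CTU1 sgRNA fell in wild-type cells, at -1.89, against -0.48 in mutant cells, where it was not called. MOCS3 passed in mutant cells without day 9 replicate 2 (-0.52, edgeR adjusted p = 0.00734), and its mutant day 9 libraries stood apart at 37.5 and 60.6 CPM.

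None of the 5 KEOPS and YRDC genes was called by edgeR or DESeq2. By edgeR 9.07% of all genes were called lower in mutant and 9.28% in wild-type cells. At an unadjusted p under 0.05 there were 0 of 5 in either line, against 18.1% and 20.3% of all genes. OSGEP, the catalytic subunit, was at -0.03 (95% interval -0.24 to 0.18) in mutant and 0.10 (-0.11 to 0.31) in wild-type cells. The kinase-like TP53RK was at 0.08 in mutant and 0.06 in wild-type cells, and its partner TPRKB at 0.10 and 0.11. LAGE3, a small subunit, was at 0.22 (-0.001 to 0.43) in mutant and -0.05 (-0.27 to 0.17) in wild-type cells. YRDC, which makes the threonylcarbamoyl donor, was at -0.05 (-0.25 to 0.14) in mutant and -0.12 (-0.32 to 0.07) in wild-type cells. Over these 5 genes and both lines the lowest bound of an interval was -0.32. Of their sgRNAs 0 were called lower by edgeR, against 5.00% of all kept sgRNAs in mutant and 5.12% in wild-type cells. All sgRNAs of OSGEP lay near those of APEX1 and all of YRDC near those of C1orf122, and neither neighbour was called. How far each sgRNA lowered its target was not measured.

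All 4 methyltransferase genes had negative changes in both lines. TRMT112, a small activator shared by several methyltransferases, had 40.0 and 40.5 CPM at day 9 and 49.7 and 64.2 CPM at day 0 in mutant cells. In wild-type cells TRMT112 had 39.6 and 36.2 CPM at day 9 and 68.3 and 59.1 CPM at day 0. TRMT112 fell by 0.50 (SE 0.12, edgeR adjusted p = 0.0025) in mutant and by 0.75 (SE 0.12, adjusted p = 1.04e-05) in wild-type cells, with no overlap. A single sgRNA carried it, with 0.56 and 0.77 CPM at day 9 against 12.1 and 19.0 CPM at day 0 in mutant cells, and 0.82 and 1.59 CPM at day 9 against 19.5 and 15.0 CPM at day 0 in wild-type cells. That is a log2 change of -4.50 in mutant and -3.84 in wild-type cells, while the other 4 ranged from -0.13 to 0.25 and from -0.92 to 0.11. It was 1 of 3 TRMT112 sgRNAs within 1 kb of those for PRDX5, whose start is 131 bp away. PRDX5 was at -0.12 in mutant and -0.08 in wild-type cells and not called. On the 2 sgRNAs left without those 3, TRMT112 was at 0.13 in mutant and -0.23 (edgeR adjusted p = 0.49) in wild-type cells, and without mutant day 0 replicate 2 the mutant change was -0.30 (adjusted p = 0.368).

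Of the 8 methyltransferases that TRMT112 binds, 2 fell in mutant cells (against 9.07% of all genes), N6AMT1 at -0.68 and ALKBH8 at -0.28, and 1 rose (against 0.798%), ZCCHC4 at 0.32 (edgeR adjusted p = 0.0030). In wild-type cells 2 fell (against 9.28%), N6AMT1 at -0.93 and ALKBH8 at -0.38. The median of the 8 was 0.07 in mutant and 0.03 in wild-type cells, near that of all genes.

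TRMT5, which methylates guanosine next to the anticodon, had 34.6 and 48.8 CPM at day 9 and 59.4 and 58.1 CPM at day 0 in mutant cells, and 43.2 and 43.6 CPM at day 9 and 56.6 and 51.2 CPM at day 0 in wild-type cells. It fell by 0.49 (SE 0.12, edgeR adjusted p = 0.0050) in mutant cells and was at -0.31 (SE 0.12, adjusted p = 0.113) in wild-type cells, where it was not called. Mutant day 9 replicate 1 was the lowest library, and without it the mutant change was -0.27 (adjusted p = 0.233), against -0.76 without replicate 2. The call was also lost without mutant day 0 replicate 1 (adjusted p = 0.0535). A pair of TRMT5 sgRNAs 4 bp apart fell in both lines, at -2.31 and -3.87 in mutant and -3.31 and -2.91 in wild-type cells. The other 3, which include the most abundant of the gene, were not called. All 5 TRMT5 sgRNAs lay near those of SLC38A6, whose start is 445 bp away on the other strand. SLC38A6 was at -0.16 in mutant and -0.09 in wild-type cells and not called. With each sgRNA weighted alike, limma gave TRMT5 a wild-type change of -1.28 (adjusted p = 0.0169). By edgeR the wild-type change was called without the most abundant sgRNA (-0.68, adjusted p = 0.00203) and, at -0.32, without mutant day 9 replicate 1 (0.0397) or replicate 2 (0.0432).

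TRMT6 and TRMT61A together form the enzyme that methylates adenosine in the T loop. TRMT6 was at -0.25 (edgeR adjusted p = 0.304) in mutant cells, not called, and fell by 0.41 (SE 0.13, adjusted p = 0.0378) in wild-type cells. TRMT61A was at -0.28 (adjusted p = 0.170) in mutant cells, not called, and fell by 0.42 (SE 0.12, adjusted p = 0.0130) in wild-type cells. In each gene 1 sgRNA was called, in wild-type cells alone. Of 5 TRMT6 sgRNAs 4 had negative changes in each line. Of 5 TRMT61A sgRNAs 5 had negative changes in mutant and 4 in wild-type cells. Without its most abundant sgRNA the TRMT61A wild-type change was -0.30 (edgeR adjusted p = 0.158) and was not called. With only the libraries compared, TRMT6 was at -0.41 (edgeR adjusted p = 0.0504) there and not called. On mean log2 CPM limma called neither TRMT6 (-0.49, adjusted p = 0.0696) nor TRMT61A (-0.44, adjusted p = 0.0627) in wild-type cells. The TRMT6 call was lost without wild-type day 9 replicate 2 (-0.25, adjusted p = 0.306), either wild-type day 0 library (0.131 and 0.262) or either mutant day 0 library (0.0614 and 0.0596), and the TRMT61A call without wild-type day 9 replicate 1 (-0.28, adjusted p = 0.176) or either wild-type day 0 library (0.122 and 0.0816). All TRMT6 sgRNAs lay near those of MCM8, a helicase gene whose start is 119 bp away and which was at -0.17 in mutant and fell by 0.38 (edgeR adjusted p = 0.0477) in wild-type cells. Which of TRMT6 and MCM8 these sgRNAs repressed cannot be told apart here.

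ADAT2, the catalytic deaminase subunit, had 33.7 and 36.5 CPM at day 9 and 47.9 and 46.9 CPM at day 0 in mutant cells, and 41.5 and 35.9 CPM at day 9 and 47.5 and 48.2 CPM at day 0 in wild-type cells. It fell by 0.43 (SE 0.12, edgeR adjusted p = 0.0112) in mutant cells and was at -0.31 (adjusted p = 0.105) in wild-type cells, where DESeq2 called it (adjusted p = 0.02). By edgeR the wild-type change was called without the most abundant sgRNA (-0.49, adjusted p = 0.0439) or without wild-type day 9 replicate 1 (-0.41, adjusted p = 0.0373). The mutant call was lost without mutant day 9 replicate 1 (0.0944) or either mutant day 0 library (0.136 and 0.0879). No single ADAT2 sgRNA was called. All 5 lay near those of PEX3, a peroxisome gene at 0.06 in mutant and 0.26 in wild-type cells, not called. ADAT3, the structural partner, was at -0.05 in mutant and -0.08 in wild-type cells and not called. Its 5 sgRNAs are also listed under SCAMP4 with the same counts, so the 2 genes cannot be told apart.

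TRNT1, the CCA-adding enzyme, had 48.5 and 51.2 CPM at day 9 and 58.5 CPM in both day 0 libraries in mutant cells, and 51.2 and 51.8 CPM at day 9 and 64.8 CPM in both day 0 libraries in wild-type cells. It was at -0.23 (edgeR adjusted p = 0.192) in mutant cells, not called, and fell by 0.33 (SE 0.10, adjusted p = 0.0263) in wild-type cells. Its sgRNAs differed. A pair 20 bp apart was at -4.27 and -2.94 in mutant and -2.82 and -3.03 in wild-type cells and called in both lines, while the other 3, 350 bp or more away, ranged from 0.03 to 0.34 in mutant and from -0.26 to 0.31 in wild-type cells and held most counts. With each sgRNA weighted alike, limma gave -1.30 (adjusted p = 5.96e-06) in mutant and -1.11 in wild-type cells, and DESeq2 called the summed mutant change of -0.23 (adjusted p = 0.0315). The wild-type edgeR call was lost without any library other than those of mutant day 9 (adjusted p = 0.0532 to 0.155). PUS7, a pseudouridine synthase, was at 0.11 in mutant and -0.04 in wild-type cells and not called.

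Over single sgRNAs, edgeR called 14 of the 152 lower in mutant cells (9.21%, against 5.00% of all kept sgRNAs). It called 22 lower in wild-type cells (14.5%, against 5.12%), and all 14 were among the 22. None was called higher in mutant cells by edgeR, while DESeq2 called 2 higher there. In wild-type cells edgeR called 1 higher, of ZBTB8OS, and DESeq2 called 2. That edgeR call was lost without wild-type day 9 replicate 2 or either wild-type day 0 library. The share of all kept sgRNAs called higher was not counted. No difference between lines was called. Of the controls, edgeR called 10 of 1894 (0.528%) lower in mutant and 11 (0.581%) in wild-type cells. It called 3 controls higher in mutant and 6 in wild-type cells. RTCB held 3 of the 14 and 4 of the 22, ELP3 2 and 3, ELP5 1 and 2, and TRMT5 and TRNT1 2 in each. FAM98B, TRMT112, TSEN54 and URM1 held 1 in each, and CTU1, ELP2, ELP4, TRMT6 and TRMT61A held 1 of the 22 each. The other 16 genes had none. The called sgRNAs of ELP3, ELP5, TRMT5 and TRNT1 each lay within 20 bp of one another.

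An sgRNA of 16 of the 30 genes lay within 1 kb of an sgRNA for another gene, and in 12 of them all did. In 4 genes, ADAT3, YRDC, MOCS3 and TRMT5, some sgRNAs, 11 in all, are listed under another gene too. When sgRNAs near another gene were left out, 16 genes kept at least 2 sgRNAs, the minimum in that fit, and 4 of them fell in mutant cells (against 7.88% of all genes in that fit) and 6 in wild-type cells (against 8.19%). The 14 genes with no such sgRNA, which include RTCB, ELP3, FAM98B and URM1, held 4 of the 8 mutant calls and 6 of the 9 wild-type calls. Among the neighbours, RBBP4 was called in both lines and MCM8 in wild-type cells, and none of the others described here was called.

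Of 81 other tRNA-related genes, 17 (21.0%, against 9.07% of all genes) fell in mutant and 15 (18.5%, against 9.28%) in wild-type cells by edgeR, and 0 rose in either line. At an unadjusted p under 0.05 there were 20 of the 81 in each line (24.7%), against 18.1% of all genes in mutant and 20.3% in wild-type cells. DESeq2 called 1 of the 81 higher in mutant and 0 in wild-type cells. Their median log2 change was -0.03 in mutant and -0.04 in wild-type cells, so most lay near 0. The largest falls were in mitochondrial RNase P, with HSD17B10 at -3.17 (SE 0.14) in mutant and -3.45 (SE 0.14) in wild-type cells and TRMT10C at -2.91 and -2.74. Its nuclease, KIAA0391, was at -0.19 in mutant and -0.25 in wild-type cells and was not called. Of 10 nuclear RNase P subunits, 6 fell in both lines, with POP1 at -2.43 in mutant and -1.92 in wild-type cells, RPP30 at -1.81 and -1.89, and POP5 at -1.35 and -1.05. The 4 called in neither line ranged from -0.12 to 0.08 in mutant and from -0.16 to 0.06 in wild-type cells. NAT10, which acetylates cytidine in tRNA and small-subunit rRNA, was at -2.10 in mutant and -1.80 in wild-type cells. C14orf166, given above, is also a gene of this list.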

How the data were processed

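Genomic DNA of 8 libraries was sequenced over the sgRNA cassette. The authors deposited 1 table of unnormalized counts of reads for each sgRNA and library. Per the file headers, bases 1 to 39 of each read were kept and matched to a human CRISPRi version 2 library. The submitters' processing notes name hg38, and the aligner and the counter are not given in the sources used here. Positions in the sgRNA names are of another build than GRCh38.p14, so only distances between sgRNAs are given.

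Of 209070 sgRNAs listed, 103686 had no count in any library. Groups and replicate numbers came from the labels. Primary-promoter sgRNAs with a mean count of at least 20 were summed per gene in Python (pandas) for genes with at least 3. Sums were TMM-normalized and fitted with edgeR 4.0.16 in R 4.3.3 (quasi-likelihood, 1 mean per group, 8 libraries, 4 residual degrees of freedom). CPM uses TMM-scaled totals, of summed genes for a gene and of all kept sgRNAs for an sgRNA. A call is a Benjamini-Hochberg adjusted p under 0.05 over all 17547 genes, or over 104881 sgRNAs including controls. Intervals are 95%. The analysis was tested on simulated data. The sgRNAs of a gene share their target and are not replicates. Replicates differed by more than sampling noise, with chi-square over its degrees of freedom from 12.95 to 19.23.

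Alternatives were scaling to control sgRNAs, RLE size factors, DESeq2 1.42.0, count minimums of 100 or none, leaving out the most abundant sgRNA or sgRNAs within 1 kb of another gene's (at least 2 sgRNAs a gene), pooling all promoters, limma 3.58.1 on mean log2 CPM (prior count 2), limma-voom with weights by day, fitting only the libraries compared, a replicate block, and leaving out each library. The rule names all members and gives values in every library for those called with a log2 change under -1, the 3 with the smallest p of the difference and the 1 nearest 0 in mutant cells. Some genes that the rule takes are counted but not reported here by name. They were added, after their values were seen, for other called members and for some sgRNAs. Neighbouring genes, KIAA0391, XBP1, ERN1 and the TRMT112 partners named were likewise chosen outside that rule. The members and lists were chosen with earlier results of these data known.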

Additional observations from a re-analysis of the deposited data

Results flagged for a closer look

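Second-promoter sgRNAs were not used in the comparisons. Of 5 kept for ADAT3, 1 had a log2 change of -0.963 in mutant cells (edgeR adjusted p = 0.0460 over all kept sgRNAs) and -0.860 in wild-type cells (adjusted p = 0.0953), where it was not called. It stood out as a fall in data outside the main measurement, against 10 of 1894 control sgRNAs (0.528%) called lower in mutant cells. Of all kept sgRNAs 5.00% were called lower there. The primary-promoter sgRNAs of ADAT3, all shared with SCAMP4, were not called.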

How the results depend on the processing

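The number of genes lower in mutant cells, 8, was 8 or 9 under every alternative that kept all libraries and all 30 genes. In those fits 8.41% to 11.3% of all genes were called lower. It was 4 of 16 genes without sgRNAs near another gene, a fit with fewer genes, and 5 to 8 when each library was left out. In wild-type cells the count of 9 was 6 of 16 in that fit, 7 to 11 under the other alternatives with all libraries, and 5 to 10 with a library left out. In the fit with 16 members, 7.88% of all genes were called lower in mutant and 8.19% in wild-type cells. Under the other alternatives with all libraries, 8.60% to 11.5% of all genes were called lower in wild-type cells. Where a left-out library lowered the member count, the change in the share of all genes is described with the calls above. No difference between lines was called among the members under any setting. With all libraries the 81 other tRNA-related genes gave 14 to 19 in mutant cells (against 7.88% to 11.3% of all genes). In wild-type cells they gave 13 to 16 (against 8.19% to 11.5%). The lowest counts were of the 54 genes kept without sgRNAs near another gene. With all libraries, member sgRNAs gave 13 to 17 in mutant cells (against 4.82% to 6.18% of all sgRNAs). In wild-type cells they gave 20 to 24 (against 4.71% to 6.58%).

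TRMT112 changed sign in mutant cells, to 0.128, without sgRNAs near another gene, on the 2 sgRNAs then left, and URM1 in wild-type cells, to 0.043, without its most abundant sgRNA. The cause was not tested. Over the 30 genes and both lines, 1113 of 1172 refitted values stayed on the same side of the threshold. A call was lost with the sign kept in 42 and gained in 15. It was lost with a change of sign in 2, those of TRMT112 and URM1. Besides these 2, 40 values of genes not called in the main test changed sign. RTCB and ELP3 kept their calls in both lines under all 20 settings. RTCB ranged from -3.08 to -2.05 in mutant and -3.48 to -2.60 in wild-type cells, and ELP3 from -1.03 to -0.53 and from -1.42 to -0.81.

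No pairing of samples by the replicate numbers shared by day 9 and day 0 was detected. Deviations correlated at 0.0442 in mutant and 0.0165 in wild-type cells. Values this low cannot show that the cultures were separate, which the labels do not state. With the replicate block, 8 members were lower in mutant (against 9.55% of all genes) and 9 in wild-type cells (against 9.87%). Of the members 0 differed between lines (against 0.0570%). The other tRNA-related genes lower there numbered 18 and 16, and the member sgRNAs 17 and 24 (against 5.31% and 5.38% of all sgRNAs). With 2 libraries a group, precision is limited by the spread between replicates rather than by counting error.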
